A study of Homo sapiens with 6 samples.

Results

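The U2 snRNA rows are 4 of the 142 small RNAs in a sequencing table of nascent RNA 3′ ends from a human TOE1-degron line of HEK 293T-REx cells, which derive from embryonic kidney. They were chosen by row name: RNU2 WT, RNU2-2P, RNU2-59P and AC024051.4, which carry 15 of the 190 gene identifiers of the table. In every group TOE1, a 3′ exonuclease, was fused to a degron that removes the protein when auxin is given. The 3 TOE1-present libraries served as controls, and in the 3 TOE1-depleted libraries an auxin, indole-3-acetic acid, had been given at 600 µM for 8 hours; whether the controls received a mock treatment is not given in the sources used here. Cells of both groups were fed 0.2 mM ethynyl uridine for 8 hours, so that RNA made in that time could be captured, and RNA of 100 to 500 nt was taken. The adaptor joined to the RNA 3′ ends was AG11 in replicates 2 and 3 of the TOE1-depleted group and AG10 in the other 4 libraries. The labels do not say whether replicates were separate cultures, so any p-value here rests on a spread among libraries that may be technical only. Only small RNA rows were used, so neither the loss of TOE1 nor the cell type was checked here. Auxin is listed for the TOE1-depleted libraries only, so an effect of auxin itself cannot be told apart from one of TOE1 loss.

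U2 snRNA is the core of the U2 snRNP, which pairs with the branch point of introns during spliceosome assembly. It is transcribed by RNA polymerase II with a short 3′ extension, exported, loaded with a ring of Sm proteins on its Sm site, given a trimethylated cap, and trimmed at its 3′ end by exonucleases, of which TOE1 is one. Many copies and pseudogenes of U2 lie in the human genome, and the series asks which small RNAs TOE1 processes.

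The gene models are shown first because the rows differ by few bases, and those bases decide which row a read can be assigned to. RNU2 WT merges 12 identifiers of an array of U2 genes on chromosome 17 that spans 66.4 kb, from 43233787 to 43300231 on hg38, within the gene CCDC200 on the same strand and outside its annotated exons in GENCODE 44. Of the 12, 11 have the sequence of RNU2-1 and 1, ENSG00000278774, is 192 nt long instead of 191. The whole gene RNU2-1 (chr17:43233787-43233977, minus strand) is given below with the branch-point recognition motif GTAGTA and the Sm-site motif ATTTTTG in capitals.
RNU2-1: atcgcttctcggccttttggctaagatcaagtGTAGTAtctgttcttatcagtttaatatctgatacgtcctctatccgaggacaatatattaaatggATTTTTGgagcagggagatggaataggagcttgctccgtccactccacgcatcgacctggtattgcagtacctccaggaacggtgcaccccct
Both motifs lie at the same positions in all 4 rows, 33 to 38 and 99 to 105 from the 5′ end. Among the 1901 genes of type snRNA in GENCODE 44, 3.58% hold GTAGTA and 6.10% hold ATTTTTG on the transcribed strand, and 0.579% and 2.63% on the opposite strand.

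AC024051.4 (ENSG00000274452, chr17:43290291-43290481, minus strand) is another copy in the same array, and GENCODE 44 names it U2. It differs from RNU2-1 by 1 base, C170T, where the base of RNU2-1 stands first, positions count from the 5′ end of the annotated gene, and the base of the other model stands last. The 60 bases downstream are the same in all 13 models of the array. RNU2-59P (ENSG00000222414, chr10:101364845-101365035, minus strand) lies in an intron of BTRC on the opposite strand and differs from RNU2-1 at 9 positions, shown in capitals, so 95.3% of its bases are the same.
RNU2-59P: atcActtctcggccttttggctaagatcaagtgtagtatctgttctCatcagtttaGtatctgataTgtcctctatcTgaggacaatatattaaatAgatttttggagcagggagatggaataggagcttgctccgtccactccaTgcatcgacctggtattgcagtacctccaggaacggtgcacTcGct
RNU2-2P (ENSG00000222328, chr11:62841619-62841809, minus strand) is 191 nt long and differs from RNU2-1 at 8 positions. It overlaps an annotated untranslated exon of WDR74 on the same strand. Its differences fall in 2 places: G108A, C109A, A110T and G111A lie just downstream of the Sm-site motif, and C170T, C187T, C189T and T191C lie near the 3′ end. The first of these places is shown in 30 bases around the motif (chr17:43233857-43233886 and chr11:62841689-62841718, minus strand), with the bases of RNU2-2P that differ in capitals.
RNU2-1: taaatggatttttggagcagggagatggaa
RNU2-2P: taaatggatttttggaAATAggagatggaa
RNU2-2P and AC024051.4 thus share C170T, and RNU2-2P and RNU2-59P share C187T.

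**Figure D1:**
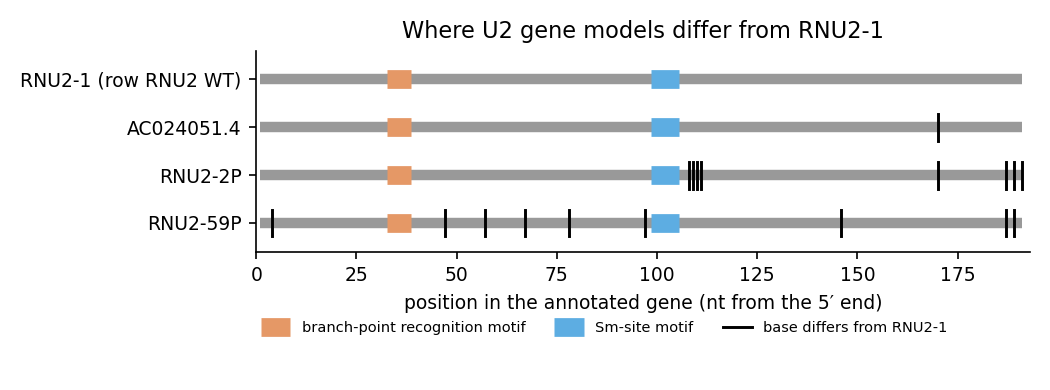
Positions at which the 3 other U2 gene models differ from RNU2-1, along the annotated gene in nt from the 5′ end. Black ticks mark differing bases (1 in AC024051.4, 8 in RNU2-2P and 9 in RNU2-59P), and coloured blocks mark the branch-point recognition motif at 33 to 38 and the Sm-site motif at 99 to 105.

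The 30 bases around the annotated 3′ end hold the median ends of all 4 rows in TOE1-present cells, and they are given with the last 15 bases of the gene in lower case and the 15 genomic bases downstream in capitals.
RNU2-1: aacggtgcaccccctCCGGGGATACAACGT
AC024051.4: aacggtgcaccccctCCGGGGATACAACGT
RNU2-2P: aacggtgcactctccCTTCGGGGAGAGAAC
RNU2-59P: aacggtgcactcgctCCGGGGATACAAAAA
These windows lie at chr17:43233772-43233801, chr17:43290276-43290305, chr11:62841604-62841633 and chr10:101364830-101364859, all on the minus strand. The 3′ box, the element that directs formation of the snRNA precursor's end, was searched by its consensus in the 60 bases downstream on both strands. It was found at bases 16 to 31 downstream of all 13 array models and in neither RNU2-2P nor RNU2-59P. Of the 1901 gene models of type snRNA, 1.42% hold it on the transcribed strand and 0% on the opposite one. The 60 bases downstream of RNU2-1 (chr17:43233727-43233786, minus strand) are shown with the matched box in capitals.
RNU2-1 downstream: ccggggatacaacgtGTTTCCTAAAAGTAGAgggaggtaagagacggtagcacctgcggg
The genome downstream of RNU2-59P matches that of RNU2-1 for 12 bases and then runs into 16 A in a row, whereas that of RNU2-2P matches for 1 base.

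The sequence across the annotated end of RNU2-2P can fold on itself. For the 15 bases before and 30 after the end, the computed minimum free energy was −20.7 kcal/mol for RNU2-2P, with 13 base pairs. It was −9.2 kcal/mol for RNU2-1 and AC024051.4 and −6.7 kcal/mol for RNU2-59P, against a median of −3.3 kcal/mol over the 1901 gene models of type snRNA. Of those models, 6.10% hold the Sm-site motif. None of the other models was as low as RNU2-2P in this window. With 15 bases downstream RNU2-2P was among the lowest 3 models, at −13 kcal/mol beside −8.1 for RNU2-1. With 50 bases downstream RNU2-2P was among the lowest 22, at −20.8 beside −17.5 for RNU2-1, so these rows lay closer together there. With 30 bases on each side RNU2-2P was among the lowest 9, at −21.9 beside −12.7 for RNU2-1. These windows were chosen after the data were seen. This is a property of the genomic sequence and not a measurement in these cells.

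U2 reads were abundant in every library, and their split over gene models was not the same in all of them. The 4 rows took 16.6% to 34.8% of the 32813 to 75353 reads of a library. Among the U2 rows with reads in all 6 libraries, RNU2 WT had the most in each. It had 9459, 6957 and 5574 reads in TOE1-present replicates 1 to 3 and 9098, 7202 and 11207 in TOE1-depleted replicates 1 to 3. RNU2-2P had 971, 703 and 652 reads with TOE1 and 1071, 891 and 1315 without it. RNU2-59P had 234, 191 and 180 reads with TOE1 and 262, 130 and 264 without it. RNU2-2P thus had fewer reads than RNU2 WT and more than RNU2-59P in every library.

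AC024051.4 stood apart from them. It had 5602, 261 and 0 reads in TOE1-present replicates 1 to 3 and 15817, 0 and 0 in TOE1-depleted replicates 1 to 3. Its share of the reads on the 4 rows was 34.4% in TOE1-present replicate 1 (95% Wilson interval 33.7% to 35.2%), 3.22% in replicate 2 (2.86% to 3.62%) and 60.3% in TOE1-depleted replicate 1 (59.7% to 60.9%). The reads were therefore almost all in replicate 1 of both groups, and in TOE1-depleted replicate 1 they exceeded those of RNU2 WT. In the 3 libraries without reads, 0 of 6406, 0 of 8223 and 0 of 12786 U2 reads allow shares of up to 0.0468%, 0.0365% and 0.0235% when 3 reads are taken as the limit that a count of 0 allows. The 95% Wilson upper limits for the same libraries were 0.0599%, 0.0467% and 0.0300%. How reads that fit several copies were assigned, and whether molecular identifiers were used, is not given in the sources used here, so intervals and limits of this kind cover counting error only.

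**Figure D2:**
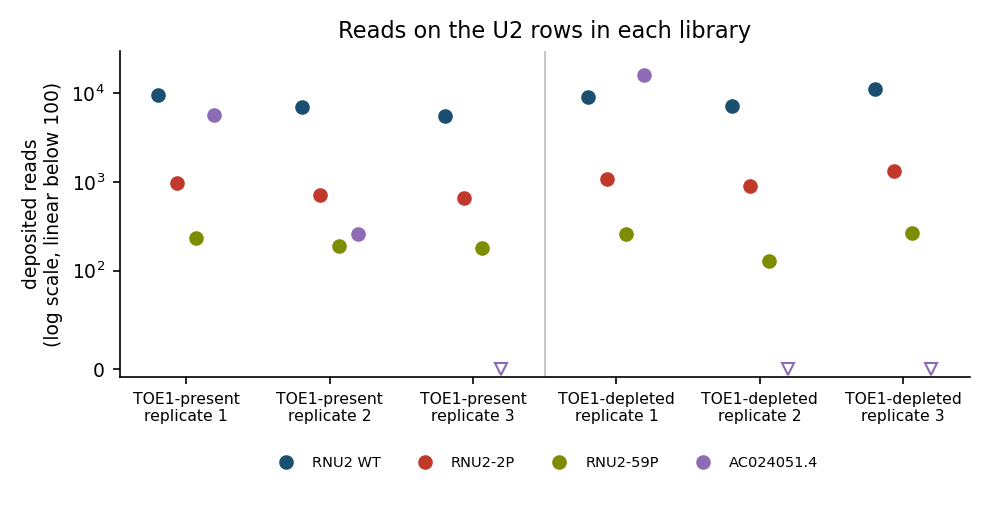
Deposited reads on the 4 U2 rows in each of the 6 libraries, on an axis that is logarithmic above 100 and linear below it; open triangles mark 0 reads. RNU2 WT, RNU2-2P and RNU2-59P keep their order in all 6 libraries, while AC024051.4 has 5602 and 15817 reads in replicate 1 of the groups, 261 in TOE1-present replicate 2 and 0 in the other 3.

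The main comparison asked whether U2 3′ ends moved when TOE1 was removed. The ends of RNU2 WT and RNU2-2P lay further downstream in TOE1-depleted cells, RNU2-2P by the larger distance, while those of RNU2-59P did not differ beyond their error. Ends are given as positions relative to the annotated end, where 0 was read as the last annotated base and positive values lie downstream, averaged over reads that end between −10 and 50 nt. They were used here per condition. The genome-templated end leaves out untemplated bases, those not matched to the genome, and the total end counts them. Whether untemplated bases were added after transcription was not tested here. P-values are the authors' own and were adjusted over all RNAs of the table that have one by the method of Benjamini and Hochberg. The 95% confidence limits of a difference were computed from its size and its p, on 4 degrees of freedom.

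In TOE1-present cells the median end lay at −3 nt for RNU2 WT, RNU2-2P and RNU2-59P alike in the authors' deposited table. The mean end lay at −0.283 nt for RNU2 WT, 0.801 nt for RNU2-2P and −2.06 nt for RNU2-59P in the authors' deposited table. The means above the medians show reads that end downstream of most others, already with TOE1 present. The headers do not say whether these control positions include the tail.

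The genome-templated end of RNU2 WT lay 2.26 nt further downstream without TOE1 (the authors' deposited table, 95% confidence limits 1.97 and 2.56 nt, adjusted p = 0.00403). That of RNU2-2P lay 7.47 nt further downstream (the authors' deposited table, 95% confidence limits 6.03 and 8.92 nt, adjusted p = 0.00953). That of RNU2-59P differed by 0.0841 nt (the authors' deposited table, 95% confidence limits −0.439 and 0.607 nt, adjusted p = 0.892). RNU2 WT and RNU2-2P thus passed and RNU2-59P did not, in a table where 2.16% of the 139 tested RNAs passed downstream and 0% upstream. Among the 61 rows with at least 200 reads, RNU2-2P and RNU2 WT had the highest and the second highest difference, against a median of −0.0867 nt. In replicate 1, the near-identical AC024051.4 held 5602 reads beside 9459 on RNU2 WT with TOE1, and 15817 beside 9098 without it. End positions were used per condition, so the shift of RNU2 WT with those reads added was not tested.

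RNU2-2P moved further than RNU2 WT. The difference between their changes was 5.21 nt, with a 95% interval of 3.47 to 6.95 nt that uses the largest error any correlation between the rows allows. The same kind of interval put RNU2 WT 1.36 to 3.00 nt and RNU2-2P 5.42 to 9.36 nt above RNU2-59P. The total end gave close values: 2.28 nt for RNU2 WT (1.84 to 2.71 nt, adjusted p = 0.0101), 7.56 nt for RNU2-2P (6.07 to 9.04 nt, adjusted p = 0.0101) and 0.454 nt for RNU2-59P (−0.112 to 1.02 nt, adjusted p = 0.557) in the authors' deposited table.

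The spread of ends, not only their mean, can be described by the largest distance between the cumulative curves of end positions in both conditions, on a scale from 0 to 1. For the genome-templated end it was 0.342 for RNU2 WT, 0.450 for RNU2-2P and 0.0430 for RNU2-59P in the authors' deposited table. Whether the authors computed it over pooled reads or library by library is not given in the sources used here, so it is a description only. By this measure too RNU2-2P differed most and RNU2-59P least.

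AC024051.4 has no p for its ends, and its TOE1-depleted reads came from 1 library. Its TOE1-present reads were 5602 in replicate 1, 261 in replicate 2 and 0 in replicate 3. If libraries with reads were weighted alike, the 261 reads weigh as much in its control values as the 5602. Its control median of 5.5 nt and mean of 4.67 nt in the authors' deposited table lay downstream of those of RNU2 WT, although the genomic sequence downstream is the same. The differences without TOE1 were −1.01 nt for its genome-templated and −1.31 nt for its total end (the authors' deposited table), opposite in sign to RNU2 WT. No replicate check exists for these differences. The table lists AC024051.4 and RNU2 WT as separate rows, and whether some reads count in both was not tested.

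**Figure D3:**
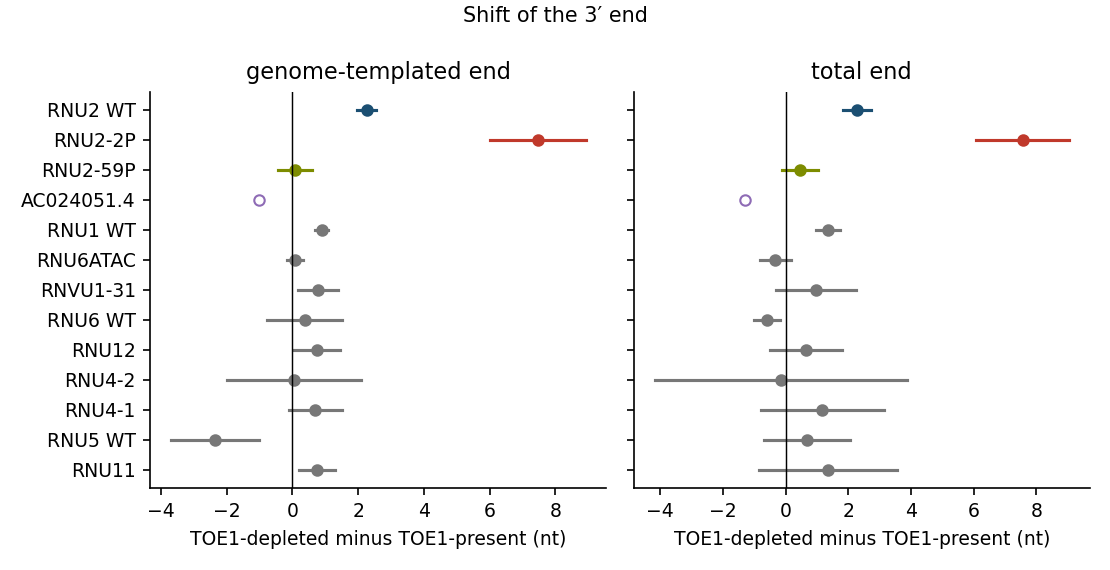
Difference of the mean 3′ end position between TOE1-depleted and TOE1-present cells in nt, for the genome-templated end (left) and the total end (right), for the 4 U2 rows in colour and other snRNA rows with at least 100 reads in grey. Bars are 95% intervals recovered from the deposited p, and the open symbol has none; RNU2 WT at 2.26 nt and RNU2-2P at 7.47 nt lie to the right of RNU2-59P at 0.0841 nt.

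Other spliceosomal snRNAs were set beside these shifts. Of the 13 rows of the U1, U4, U5, U6, U11, U12, U4atac and U6atac families, 1 passed downstream and 0 upstream for the genome-templated end. That row was RNU1 WT, the snRNA that recognises the 5′ splice site, at 0.888 nt (the authors' deposited table, 95% confidence limits 0.695 and 1.08 nt, adjusted p = 0.009999). For the total end the counts were again 1 and 0. The list's median difference was 0.407 nt with 11 of 13 values above 0, beside −0.102 nt and 53 of 139 over all RNAs. U12 (row RNU12), which takes the place of U2 in the minor spliceosome, differed by 0.758 nt (the authors' deposited table, 95% confidence limits 0.0591 and 1.46 nt, adjusted p = 0.358). The Lsm-bound RNU6 WT and RNU6ATAC differed by 0.369 and 0.0703 nt and RNVU1-31, a U1 variant, by 0.780 nt in the authors' deposited table, none of them past the threshold. The total end of RNU6 WT lay the other way, at −0.593 nt (adjusted p = 0.354). RNU5 WT, with 106 reads, had the list's largest difference of the genome-templated end, −2.35 nt (the authors' deposited table, 95% confidence limits −3.69 and −1.01 nt, adjusted p = 0.189). Its total end differed by 0.681 nt (adjusted p = 0.713).

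The adaptor cannot be set apart from these end shifts, nor from the tail differences given below. AG11 occurs only among the TOE1-depleted libraries, 2 of 3, and end positions and tail measures were used here as condition means.

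Untemplated tails were compared next: short runs of A mark precursor snRNAs for decay or trimming, and TOE1 can remove such tails. None of the tail differences of the U2 rows passed the threshold, and few did in the whole table: 0% of 128 RNAs for tails of 1 or more A, 1.08% of 93 for 2 or more and 1.37% of 73 for 3 or more. At an unadjusted p under 0.05, 2.34% of the 128 RNAs were higher and 18.8% lower for 1 or more A, 3.23% of the 93 were higher for 2 or more, and 4.11% of the 73 were higher for 3 or more. The direction was not the same in all U2 rows. In RNU2-2P, A-tailed reads were 4.92% with TOE1 and 13.7% without it (the authors' deposited table, 95% confidence limits 6.02 and 11.5 percentage points, adjusted p = 0.113). In RNU2 WT they were 20.7% and 15.3% (the authors' deposited table, 95% confidence limits −11.0 and 0.206 percentage points, adjusted p = 0.214). In RNU2-59P they were 2.36% and 0.506% (the authors' deposited table, 95% confidence limits −3.34 and −0.364 percentage points, adjusted p = 0.214). RNU2-59P had 605 reads with TOE1 and 656 without it, so these shares rest on few A-tailed reads.

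The direction in RNU2-2P was the less common one. Of 61 rows with at least 200 reads, 54 had a lower and 5 a higher share of A-tailed reads without TOE1, with a median of −9.28 percentage points, and 1 row had a larger increase than RNU2-2P. With TOE1 present, 56 of the 61 rows had a higher A-tailed share than RNU2-2P, whose 4.92% compares with a median of 18.8%. The change in RNU2-2P lay 14.2 percentage points above that in RNU2 WT (5.82 to 22.5, with the largest error the data allow).

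In RNU2 WT the tails differed by length. Reads with exactly 1 A were 19.3% with TOE1 and 12.4% without it (the authors' deposited table, adjusted p = 0.232). Those with 2 or more A were 1.38% and 2.92% (the authors' deposited table, 95% confidence limits 0.756 and 2.33 percentage points, adjusted p = 0.207). Those with 3 or more A were 0.422% and 1.27% (the authors' deposited table, 95% confidence limits 0.499 and 1.20 percentage points, adjusted p = 0.0922). Single-A reads were thus fewer and longer A tails more frequent, each past 0.05 before adjustment and not after it. For exactly 1 A, 1.63% of 123 RNAs were higher and 17.9% lower at that unadjusted threshold, and 0% passed after adjustment. RNU2-2P had 0.742% and 2.18% of reads with 2 or more A (the authors' deposited table, 95% confidence limits 0.652 and 2.21 percentage points, adjusted p = 0.207). Its reads with 3 or more A were 0.344% and 0.441% (the authors' deposited table, 95% confidence limits −0.581 and 0.774 percentage points, adjusted p = 0.787).

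Untemplated A bases per read are another measure, which includes A outside the A-tailed reads. RNU2-59P had 0.769 of them with TOE1, where 2.36% of its reads were A-tailed and 0% had 3 or more A. RNU2 WT carried 0.418 A bases per read with TOE1 and 0.417 without it (the authors' deposited table, 95% confidence limits of the difference −0.101 and 0.0990). RNU2-2P carried 0.392 and 0.516 A bases per read (the authors' deposited table, 95% confidence limits 0.00494 and 0.243, adjusted p = 0.392). U tails of 1 or more U were 2.89% and 2.85% in RNU2 WT, 1.65% and 1.29% in RNU2-2P and 2.08% and 1.27% in RNU2-59P in the authors' deposited table, with 95% limits of the difference on both sides of 0 in each. Tails holding both A and U were 0.418% and 0.649% in RNU2 WT (the authors' deposited table, adjusted p = 0.506).

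RNU2-59P carried untemplated A, G and U as well as C, and C was the most frequent. It carried 1.22 untemplated C bases per read in TOE1-present cells and, after depletion, 1.29 (the authors' deposited table). Its A bases were 0.769 and 0.783 per read, its G bases 0.229 and 0.426, and its U bases 0.208 and 0.301. RNU2 WT had 0.0845 and 0.0855 C bases per read, RNU2-2P 0.391 and 0.339, and AC024051.4 0.350 and 0.293, the last without a p. In TOE1-present cells, 1 of the 61 rows with at least 200 reads had more C bases per read than RNU2-59P. For RNU2-2P, 3 of the 61 did, so a high C count was not particular to RNU2-59P. The RNU2-59P model differs from RNU2-1 near the 3′ end by C187T and C189G, and whether this bears on the untemplated C was not tested. AC024051.4 had A-tailed shares of 12.9% and 5.16% in the authors' deposited table, without a p.

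**Figure D4:**
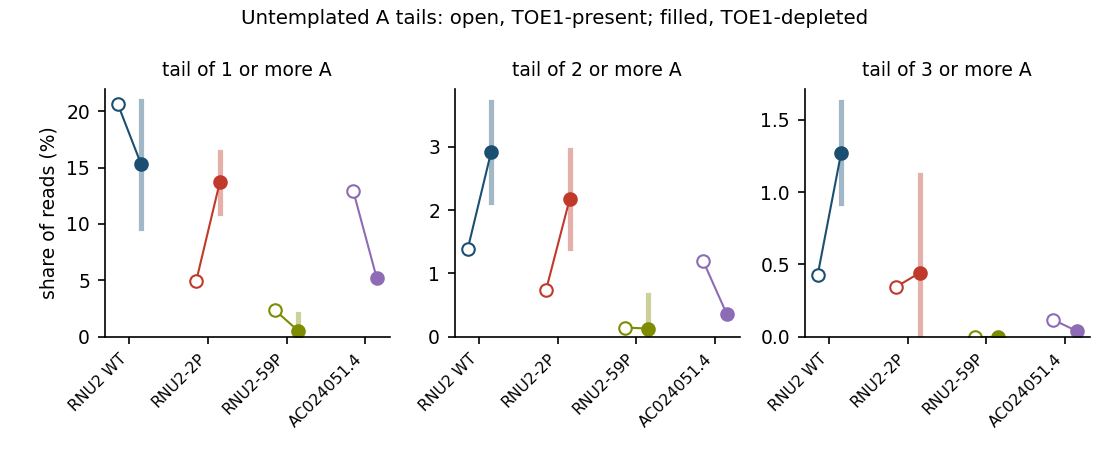
Share of reads in percent with an untemplated tail of 1 or more, 2 or more and 3 or more A on each U2 row, with TOE1 present (open) and depleted (filled). Pale bars are the 95% interval of the difference drawn around the filled symbol and end at the axis where it reaches below 0; the share with 1 or more A is 20.7% and 15.3% in RNU2 WT and 4.92% and 13.7% in RNU2-2P.

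Abundance was compared on the counts, after scaling by TMM factors, as CPM, a row's reads relative to the scaled total of its library. The levels of RNU2 WT, RNU2-2P and RNU2-59P were each lower in all 3 TOE1-depleted than in all 3 TOE1-present libraries, and RNU2-59P fell past the threshold. RNU2 WT stood at 223502, 216754 and 189974 CPM with TOE1 and 133719, 174172 and 137899 CPM without it (log2 difference −0.50 ± 0.22 SE, edgeR adjusted p = 0.197). RNU2-2P stood at 22943, 21903 and 22222 CPM with TOE1 and 15741, 21548 and 16181 CPM without it (log2 difference −0.33 ± 0.20 SE, edgeR adjusted p = 0.364). RNU2-59P stood at 5529, 5951 and 6135 CPM with TOE1 and 3851, 3144 and 3248 CPM without it (log2 difference −0.78 ± 0.13 SE, edgeR adjusted p = 0.0348). The groups did not overlap in these 3 rows, as in 14.9% of the 101 tested RNAs in this direction and 16.8% in the other, and 2.97% were called lower and 4.95% higher. In bulk samples, fewer molecules per cell and fewer cells making them cannot be told apart.

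The call of RNU2-59P rests on all 6 libraries and on the scaling. Leaving out any 1 of them gave edgeR adjusted p of 0.0619 to 0.108, with log2 differences of −0.88 to −0.73, in fits that called 0 or 1 RNA in each direction. Scaled by library totals alone, RNU2-59P stood at −0.24 (edgeR adjusted p = 0.383), and RNU2 WT and RNU2-2P turned to 0.062 and 0.24. That scaling moved the median of all 101 RNAs from 0.08 to 0.63 and the calls from 5 higher and 3 lower to 31 and 0. Each U2 row was therefore also set against that median. Relative to the median, RNU2 WT lay at −0.58 with TMM and −0.57 with library totals, RNU2-2P at −0.40 and −0.39, and RNU2-59P at −0.86 and −0.87. A change of scaling moves all RNAs of a library alike, so the near-equal values under both scalings follow from the construction and are no separate support. With DESeq2, RNU2 WT was called lower as well (log2 difference −0.59, DESeq2 adjusted p = 0.0122). In the AG10 libraries alone RNU2-59P stood at −0.59 (edgeR adjusted p = 0.142). That fit has a single TOE1-depleted library, which is assumed to vary like the TOE1-present ones, and it called 0 of 101 RNAs in either direction, so the lost call is not particular to RNU2-59P.

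With the AC024051.4 reads added to RNU2 WT, the summed level of these rows was 358443, 226512 and 191449 CPM with TOE1 and 353045, 175432 and 138897 CPM without it. The groups then overlapped, and the log2 difference of the sum was −0.22 (edgeR adjusted p = 0.900). AC024051.4 itself, with reads in 3 libraries, gives no usable fold.

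The ratio of RNU2-2P to RNU2 WT was higher in all 3 TOE1-depleted than in all 3 TOE1-present libraries, by a margin that this design cannot carry past the threshold. Per 100 reads of RNU2 WT it had 10.3, 10.1 and 11.7 reads in the TOE1-present libraries and 11.8, 12.4 and 11.7 in the TOE1-depleted ones. The means were 10.7 ± 0.877 and 11.96 ± 0.358 (SD, n = 3 each, exact 2-sided permutation test on the log2 ratios, p = 0.1). That is the smallest p this design allows, and the lowest TOE1-depleted ratio (11.73) lay just above the highest TOE1-present one (11.70). RNU2-59P had 2.47, 2.75 and 3.23 reads per 100 with TOE1 and 2.88, 1.81 and 2.36 without it, and its groups overlapped (exact 2-sided permutation test on the log2 ratios, p = 0.3). Taken as a share of all 4 rows, RNU2-2P made up 5.97%, 8.67% and 10.2% with TOE1 and 4.08%, 10.8% and 10.3% without it, low wherever AC024051.4 had many reads. That share gave no difference beyond its spread (0.129 percentage points, exact 2-sided permutation test, p = 0.9). With AC024051.4 left out of the sum, RNU2-2P made up 9.11%, 8.95% and 10.2% with TOE1 and 10.3%, 10.8% and 10.3% without it. That difference was 1.05 percentage points with groups that did not overlap (exact 2-sided permutation test, p = 0.1, again the smallest possible).

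**Figure D5:**
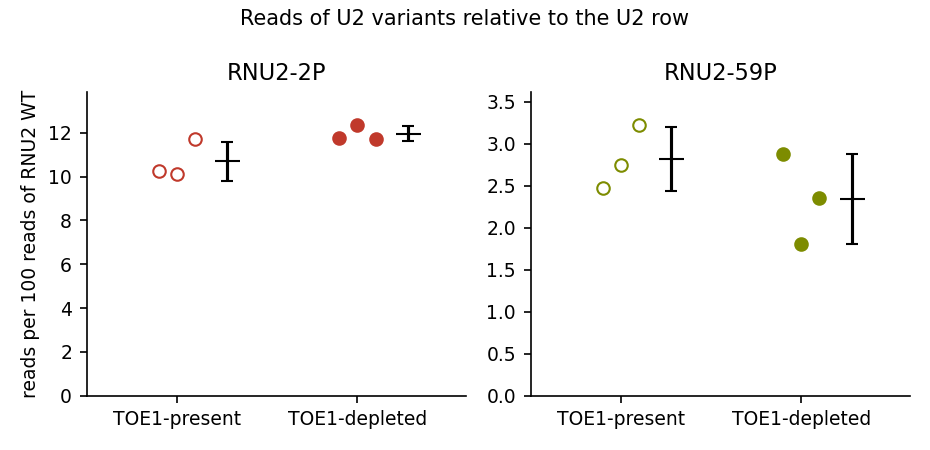
Reads of RNU2-2P (left) and RNU2-59P (right) per 100 reads of RNU2 WT in each library, with TOE1 present (open) and depleted (filled); black bars give the mean ± SD of 3 libraries. RNU2-2P lies between 10.1 and 12.4 in all 6 libraries, with means of 10.7 and 11.96.

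The profiles of abundance most like those of U2 were named by the mean absolute difference of centred log2 CPM over the 6 libraries, among 55 rows outside the U2 family with at least 200 reads. For RNU2 WT they were SNORD3 (U3, a snoRNA of ribosome processing) at 0.11, RN7SK (7SK, a regulator of transcription elongation) at 0.14 and RNU12 at 0.15, where the median row stood at 0.34. RNU2-2P stood at 0.10 from RNU2 WT. For RNU2-2P they were RNU12 at 0.07, RNU6ATAC, also of the minor spliceosome, at 0.08 and SCARNA10, a Cajal body RNA, at 0.13, where the median row stood at 0.28. All rows share the same libraries and scaling factors, so this is a description of likeness only. Of the 10 other snRNA rows tested for abundance, 0 passed in either direction, beside 5 higher and 3 lower of 101 overall; at an unadjusted p under 0.05, 0 of the 10 were higher and 1 lower by edgeR.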

How the data were processed

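Ends of nascent small RNAs were measured in 6 libraries. Alignment tool and build were STAR 2.7.8a and hg38, per the submitters' processing notes. Which annotation was used, and how reads that fit several copies were counted, is not given in the sources used here. Deposited by the authors were raw read counts per RNA and library, and per condition the end positions, the differences in nt, tail shares as fractions (printed here as a percent) and p-values, per the file headers. The headers leave TE and GE unexplained. Their difference matched the sum of the 4 tail-base changes in 142 of 142 rows (tolerance 1e-06 nt), so they were read as total and genome-templated end. The p-values were read as tests on library means with a pooled variance, and 143 of the 1117 for tails equalled the value such a test gives when 1 library differs from 0. Standard errors and intervals follow from difference and p. Kolmogorov-Smirnov distances are as the authors deposited them.

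Counts were tested with edgeR 4.0.16 (TMM, filterByExpr, quasi-likelihood test, Benjamini-Hochberg adjustment, threshold 0.05), with DESeq2 1.42.0 and limma 3.58.1 as alternatives. The count test and the recovery of errors were tested on simulated data. Depth was 32813 to 75353 reads per library. Sequences come from hg38 with GENCODE 44, in which all 15 identifiers were found, and folds from ViennaRNA 2.7.2. Replicate numbers were checked for pairing: deviations from group means of same-numbered libraries correlated at 0.907, 0.258 and 0.807 over 101 RNAs, and at 0.0197, 0.00892 and 0.144 without the RMRP, AL162581.1 and AC024051.4 rows. Named were the 4 U2 rows, the 3 rows with the most similar abundance profile to RNU2 WT and to RNU2-2P, and other snRNA rows past the threshold or with at least 1000 reads. RNU5 WT was named as well, for the largest difference of the genome-templated end among the other snRNA rows. Members and lists were chosen with earlier results of these data known.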

Additional observations from a re-analysis of the deposited data

How the results depend on the processing

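End and tail results of RNU2 WT, RNU2-2P and RNU2-59P kept their side of the threshold when adjusted over rows with at least 100 reads. They did so too under limma's moderated test on the recovered errors. The ends also did so over rows with at least 20 reads in each condition and under Bonferroni adjustment. The Kolmogorov-Smirnov p fell on the same side for the ends. Whether it was computed over pooled reads is not given, so it is no separate support. Abundance depended more on the choices. Scaled by library totals alone, the log2 differences were 0.062 for RNU2 WT, 0.24 for RNU2-2P and −0.24 for RNU2-59P. DESeq2 called RNU2 WT at −0.59. RNU2-59P was not called in AG10 libraries only (−0.59) or with the adaptor as a covariate (−0.61); these fits, the first with 1 TOE1-depleted library, called 0 RNAs in all. Leaving out 1 library gave −0.63 to −0.43 for RNU2 WT, −0.49 to −0.25 for RNU2-2P and −0.88 to −0.73 for RNU2-59P, the last never called; fewer libraries were then tested. The share of U2 reads differed by −16.4 to 10.6 percentage points for RNU2 WT, by −1.09 to 2.29 for RNU2-2P and by −1.03 to −0.349 for RNU2-59P when 1 library was left out, and by −4.19 for RNU2-2P in AG10 libraries; with AC024051.4 reads out of the denominator the differences were −0.623, 1.05 and −0.427. With the replicate block, edgeR called 8 RNAs higher and 10 lower in place of 5 and 3; RNU2-59P stood at −0.78 (edgeR adjusted p = 0.0100), and no call of a U2 row changed. DESeq2 called 3 higher and 12 lower, the fit without filter 3 and 2, and the fit with AC024051.4 reads added to RNU2 WT 5 and 8. Chosen after the data were seen, a fit without the RMRP, AL162581.1 and AC024051.4 rows called 6 higher and 12 lower, with RNU2-59P at −0.82 (edgeR adjusted p = 0.00688). Without 1 library, or with AG10 libraries only or the adaptor as a covariate, edgeR called 0 or 1 in each direction.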
